A study of Mus musculus with 9 samples.

Results

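The 9 genes described here, Alpl, Fut4, Fut9, Pecam1, Kit, Cd9, Cd24a, Icam1 and Podxl, encode proteins used to recognise or sort mouse pluripotent cells at their surface, or enzymes that build a surface epitope used in that way. They were chosen by name, with earlier results of these data known. Each was represented by exactly 1 probe set carrying a single gene symbol, so all 9 were measured, out of 19938 genes compared in the series. Against embryonic fibroblasts, 6 of them (Alpl, Fut9, Kit, Pecam1, Icam1 and Podxl) rose in both pluripotent lines. Cd24a fell in R1 cells and lay between R1 cells and fibroblasts in iPS cells, and Fut4 and Cd9 were not called. Cd24a was the member whose signal differed between both pluripotent lines by the threshold used.

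RNA was hybridised to Affymetrix whole-transcript arrays from 3 groups of mouse cells with 3 arrays each. MEF are embryonic fibroblasts cultured to a passage below 3, the cells from which the iPS cells came. R1 is an embryonic stem cell line. The iPS cells, which the labels call inducible, are fibroblasts returned to a pluripotent state. The labels do not name the reprogramming factors, the number of iPS clones, the mouse strains or the culture conditions of any group. The arrays of a line are described as biological repeats, with no word on separate derivations, so the p-values rest on the spread among these repeats alone. Median array signals were 78.2 to 83.3, and the number of arrays limits the precision. The defining genes followed the labels: the summed signal of 8 pluripotency genes was 350 to 445 in MEF, 34273 to 35625 in R1 and 28590 to 29968 in iPS arrays, and that of 8 fibroblast genes was 30205 to 34501, 2161 to 3146 and 3243 to 3897. Of the 8 pluripotency genes, Zfp42 was called between the lines, with a mean of 506 in iPS and 3539 in R1 cells (-2.77 ± 0.11). In such bulk samples, fewer cells of a type and less RNA per cell cannot be told apart. The arrays measured RNA, so surface protein, the sugar epitope and enzyme activity were not measured.

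Pluripotent cells carry a characteristic coat of enzymes, sugars and adhesion proteins. Tissue-nonspecific alkaline phosphatase, the product of Alpl, gives the staining by which embryonic stem cell colonies are recognised. The epitope SSEA-1, a Lewis x sugar, is completed by fucosyltransferases such as those encoded by Fut4 and Fut9. Kit is the receptor for stem cell factor. Pecam1 and Icam1 are adhesion proteins of the immunoglobulin superfamily. Podxl encodes the sialomucin podocalyxin, Cd24a a small mucin held in the membrane by a lipid anchor, and Cd9 a tetraspanin. During the reprogramming of fibroblasts, loss of Thy1 and Cd44 and gain of SSEA-1 and Icam1 are used to follow the cells.

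A gene was called at a limma adjusted p under 0.05 and a difference of 1 or more on the scale of log2(signal + 16). Genes said to have risen or fallen passed both limits. In iPS cells against MEF, 6 of 9 members were called higher and 0 lower (2, Fut4 and Cd24a, were lower at an unadjusted limma p under 0.05), where 5.08% of all genes were called higher, 7.57% lower and 12.7% in either direction. In R1 cells against MEF, 6 were called higher and 1 lower, where 5.56% of all genes were called higher, 7.93% lower and 13.5% in either direction. Both comparisons use the same MEF arrays. The median difference of the 9 members was 1.41 in iPS and 1.77 in R1 cells, against 0.02 over all genes in each. With no minimum difference, 8 members passed in iPS cells (48% of all genes) and 9 in R1 cells (48.9%). The arrays did not overlap for any member in either comparison, which held for 52.3% and 54.3% of all genes.

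**Figure D1:**
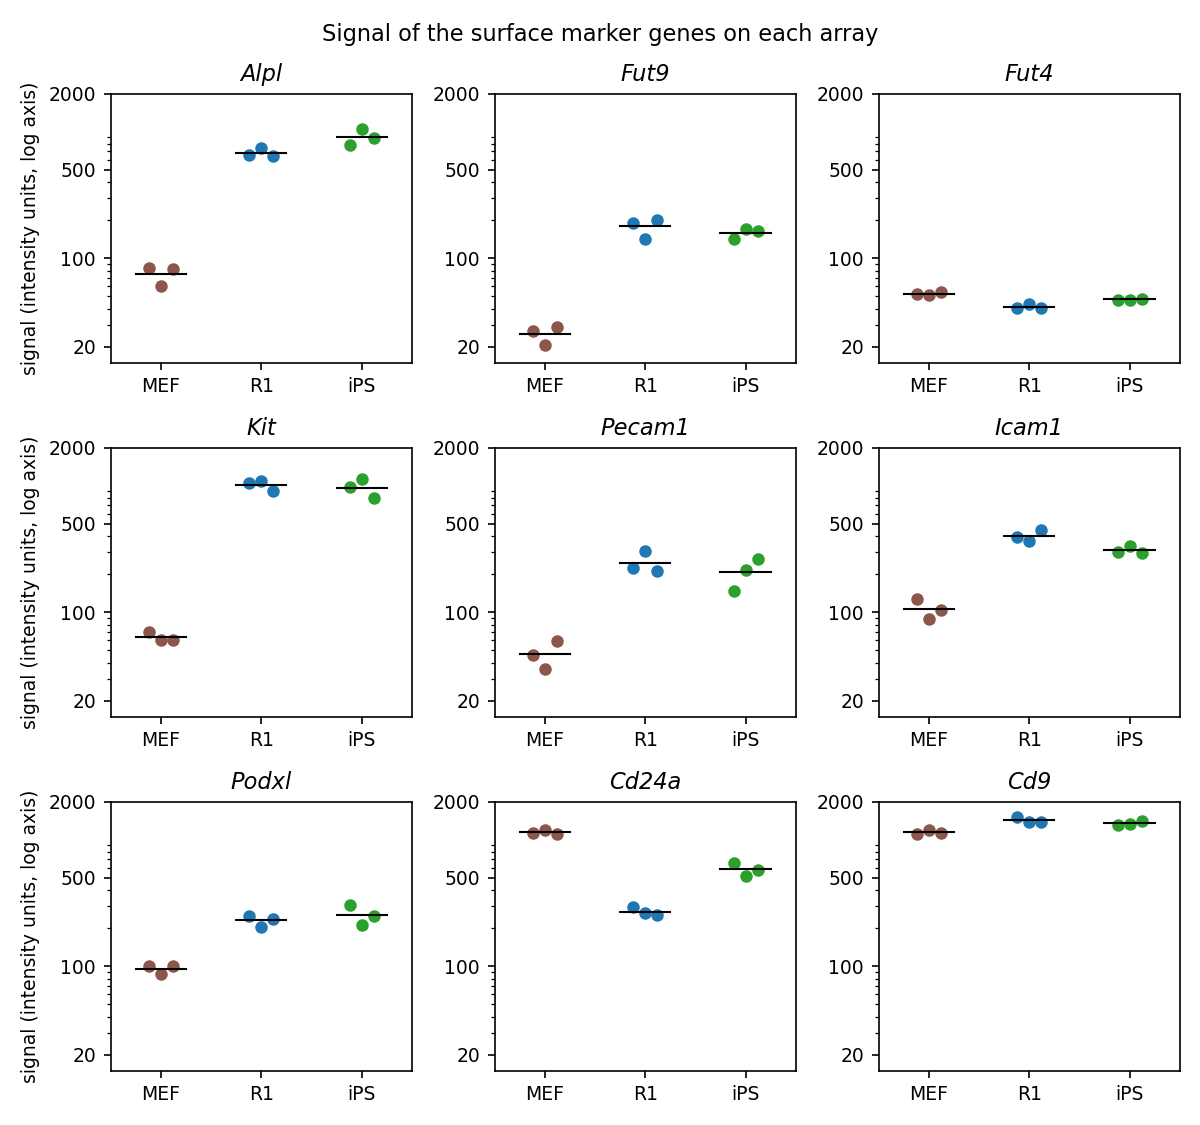
Signal of each gene on each array (points; intensity units on a log axis), with the group mean as a line, for 3 arrays each of MEF, R1 and iPS cells. Alpl and Kit show the widest gap between MEF and the pluripotent lines, Cd24a is highest in MEF and intermediate in iPS cells, and Fut4 and Cd9 lie nearly level.

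Promoter windows were given for 5 of the 9 genes by RefSeq (GRCm38.p6). The windows of Kit, Alpl and Icam1 are shown as those of genes that rose in both lines, and that of Fut4 as that of a gene that was not called. Each holds the 250 bases before a transcript start, 5′ to 3′ on the strand of the gene, with capitals marking a match to a GC box (GGGCGG on either strand, overlapping matches merged).
Kit, chr5:75574737-75574986, plus strand: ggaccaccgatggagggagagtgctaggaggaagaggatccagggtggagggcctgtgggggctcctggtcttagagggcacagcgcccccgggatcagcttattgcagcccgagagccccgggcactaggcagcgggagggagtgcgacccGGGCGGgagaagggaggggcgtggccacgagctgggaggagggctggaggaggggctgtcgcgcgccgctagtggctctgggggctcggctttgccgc
Alpl, chr4:137796385-137796634, minus strand: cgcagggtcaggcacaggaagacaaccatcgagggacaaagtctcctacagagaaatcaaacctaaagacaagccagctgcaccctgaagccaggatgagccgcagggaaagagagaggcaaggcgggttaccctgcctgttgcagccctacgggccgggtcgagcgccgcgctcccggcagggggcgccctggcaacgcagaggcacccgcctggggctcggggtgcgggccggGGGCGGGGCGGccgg
Icam1, chr9:21015690-21015939, plus strand: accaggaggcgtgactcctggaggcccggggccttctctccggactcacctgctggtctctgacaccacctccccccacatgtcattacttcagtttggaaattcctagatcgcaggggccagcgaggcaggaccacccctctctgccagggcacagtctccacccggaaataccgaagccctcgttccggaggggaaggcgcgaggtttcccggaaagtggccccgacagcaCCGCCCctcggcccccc
Fut4, chr9:14752123-14752372, minus strand: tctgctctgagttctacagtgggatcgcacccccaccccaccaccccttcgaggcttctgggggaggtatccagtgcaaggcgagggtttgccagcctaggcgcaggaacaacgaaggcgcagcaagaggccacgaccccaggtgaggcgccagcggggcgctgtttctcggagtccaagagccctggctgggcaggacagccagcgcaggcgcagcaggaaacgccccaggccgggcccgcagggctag
The Alpl window held 2 overlapping GC boxes, beginning 15 and 10 bases before the start, the Kit window 1 at 98 bases and the Icam1 window 1 at 17 bases, while the Fut4 window held none. Of 32851 promoter windows of this length in the table, 32.7% held a GC box. The window of Cd9, also not called, held 2 (at 81 and 60 bases). A second Alpl start had a window with no GC box and 1 TATA box (TATAAA on either strand), a motif found in 12.4% of windows. No window of the 5 genes held the octamer ATGCAAAT (1.60% of windows), the Sox core CATTGT (10.7%) or the E-box CACGTG (6.02%), each searched on both strands. The GC content was 70.8% for Kit, 68.4% for this Alpl window, 67.6% for Fut4, 65.2% for Icam1 and 61.6% for Cd9, against a median of 52.4% over all windows. The second Alpl window had a GC content of 56%. Among these 5 genes, GC content and GC boxes thus did not separate the windows of Kit, Alpl and Icam1 from those of Fut4 and Cd9. RefSeq windows for Fut9, Pecam1, Cd24a and Podxl were not used here.

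Alpl, the alkaline phosphatase of the pluripotent colony, had signals of 83.9, 61.0 and 82.7 on the MEF arrays. They were 648, 744 and 644 on the R1 arrays and 781, 1046 and 891 on the iPS arrays. Each pluripotent array was far above each MEF array, and each iPS array was above each R1 array. Alpl rose by 3.33 ± 0.13 (SE of the fit) in iPS cells against MEF (adjusted p = 2.49e-08) and by 2.93 ± 0.13 in R1 cells (adjusted p = 4.80e-08). These are 10.04 and 7.60 times on the scale of signal + 16. By the size of its increase in iPS cells, Alpl ranked 70 among 19938 genes. The increase was that of this phosphatase gene among those measured: the intestinal and embryonic relatives Alpi, Akp3 and Alppl2, which were named after their values were seen, had mean signals of 36.8 to 82.3 in every group and were not called. Of 10 measured genes of alkaline phosphatases, lipid anchoring and phosphate handling, 0 were called higher by limma (1 in each line at an unadjusted p under 0.05) and 2 lower in each line. Those were Ank, a pyrophosphate transporter (-1.43 ± 0.14 in iPS and -1.78 ± 0.14 in R1 cells), and Pigk, a subunit of the enzyme that attaches lipid anchors to proteins such as Alpl (-1.31 ± 0.08 and -1.25 ± 0.08). The list's median was -0.19 and -0.18.

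The enzymes proposed for SSEA-1 moved unequally. Fut9, which encodes the main enzyme of Lewis x synthesis in the mouse embryo and brain, had signals of 26.9, 20.8 and 28.4 in MEF, 191, 143 and 202 in R1 and 143, 170 and 163 in iPS arrays. All pluripotent arrays were at least 143 and all MEF arrays at most 28.4, a level at which signal is not told apart from background. Fut9 rose by 2.08 ± 0.12 in iPS (adjusted p = 4.07e-07) and by 2.23 ± 0.12 in R1 cells (adjusted p = 2.25e-07). Because the MEF signal lies at that floor, the size of these differences depends on the pseudocount: it was 2.65 in iPS and 2.81 in R1 cells with none and 1.32 and 1.43 with 64, and Fut9 was called with each. Fut4, a related fucosyltransferase of myeloid and other cells, had signals of 52.0, 51.6 and 54.2 in MEF, 40.2, 43.7 and 40.5 in R1 and 47.2, 47.2 and 47.8 in iPS arrays. The 3 groups were separate but close, with MEF highest and R1 lowest. Their means of 41.5 to 52.6 are dim, and dim signal cannot be separated from background here. Fut4 differed by -0.11 ± 0.04 in iPS (adjusted p = 0.0520) and -0.26 ± 0.04 in R1 cells (adjusted p = 0.000575) and was not called in either. RefSeq lists a transcribed pseudogene of Fut4, Fut4-ps1, so which of these was measured is uncertain.

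Most other genes of this sugar pathway were not called. Of 18 measured genes for GDP-fucose, lactosamine chains and further fucosyltransferases, 1 was called higher and 4 lower in each line. The share of all genes called in either direction was 12.7% in iPS and 13.5% in R1 cells. At an unadjusted limma p under 0.05, 12 were lower in each line, and 5 were higher in iPS and 2 in R1 cells. The median was -0.65 in iPS and -0.59 in R1 cells. The gene that rose was B3gnt2, which extends lactosamine chains (1.37 ± 0.10 in iPS and 1.54 ± 0.10 in R1 cells). B4galt1, which adds the galactose of lactosamine, fell (-1.20 ± 0.06 and -1.56 ± 0.06), as did Fut8, which fucosylates the core of N-glycans (-1.25 ± 0.09 and -1.18 ± 0.09), and the sialyltransferase gene St3gal4 (-1.41 ± 0.09 and -1.37 ± 0.09). The fourth that fell was B3gnt5 in iPS (-1.02 ± 0.09) and the UDP-galactose transporter gene Slc35a2 in R1 cells (-1.09 ± 0.07). Each missed only the minimum difference in the other line (B3gnt5 -0.92 ± 0.09 in R1, Slc35a2 -0.85 ± 0.07 in iPS cells). Neither was called between the lines. Among 8 genes of globo and related lipid sugars, which carry the epitopes SSEA-3 and SSEA-4, 4 fell in each line and 1, B4galt6, rose in iPS cells (1.10 ± 0.08). The 4 were St3gal1, St3gal2, B3galnt1 and Ugcg, with differences of -1.86 to -1.61 in iPS and -2.01 to -1.36 in R1 cells. B4galt6 missed only the minimum difference in R1 cells (0.95 ± 0.08) and was not called between the lines.

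Kit had the largest increase of the 9 members. Its signals were 70.5, 61.0 and 60.1 in MEF, 1046, 1098 and 904 in R1 and 982, 1121 and 792 in iPS arrays. The pluripotent lines overlapped each other and lay far above every MEF array. Kit rose by 3.61 ± 0.12 in iPS (adjusted p = 1.28e-08) and 3.69 ± 0.12 in R1 cells (adjusted p = 9.09e-09). By the size of the increase, Kit ranked 52 in iPS and 53 in R1 cells among all genes. The gene of its ligand, stem cell factor (Kitl), which was named after its values were seen, had mean signals of 107 in MEF, 61.4 in R1 and 57.7 in iPS cells and was not called (-0.67 ± 0.09 in R1 and -0.74 ± 0.09 in iPS cells). Of 20 measured genes of the ligand, related receptors and signalling proteins, 2 were higher and 7 lower in each line, with medians of -0.57 in iPS and -0.49 in R1 cells. The adaptor gene Gab1 rose (2.28 ± 0.09 in iPS and 2.81 ± 0.09 in R1 cells), and so did the phosphatase gene Ptpn6 (1.52 ± 0.11 and 1.37 ± 0.11). The related receptor genes Pdgfrb (-3.45 ± 0.12 and -3.65 ± 0.12) and Pdgfra (-2.77 ± 0.15 and -2.46 ± 0.15), which mark mesenchymal cells, fell. Fyn, a kinase (-1.18 ± 0.16 and -1.69 ± 0.16), and Stat5b (-1.57 ± 0.08 and -1.34 ± 0.08) fell too.

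Pecam1, better known from endothelium and blood, varied most between arrays. Its signals were 45.9, 35.5 and 58.9 in MEF, 224, 302 and 214 in R1 and 146, 215 and 261 in iPS arrays. The coefficient of variation was 25.1% in MEF, 19.6% in R1 and 28.0% in iPS arrays, the highest of the 9 genes in each group, yet the lowest pluripotent array was above the highest MEF array. Pecam1 rose by 1.81 ± 0.21 in iPS (adjusted p = 4.56e-05) and 2.07 ± 0.21 in R1 cells (adjusted p = 1.67e-05). Its MEF mean of 46.8 is under 50, so the size of these differences depends on the pseudocount. In iPS cells it was 2.14 with none and 1.28 with 64. In R1 cells it spanned 1.48 to 2.41 over all fits made. Icam1, the ligand of leukocyte integrins, had signals of 126, 89.3 and 105 in MEF, 391, 365 and 446 in R1 and 300, 333 and 294 in iPS arrays. All 3 groups were separate, in the order MEF, iPS, R1. Icam1 rose by 1.41 ± 0.11 in iPS (adjusted p = 2.87e-06) and 1.77 ± 0.11 in R1 cells (adjusted p = 5.48e-07).

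Among 13 measured relatives and partners of these adhesion proteins, 8 were not called in each line. In each line 1 was higher and 4 lower, with medians over the 13 of 0.002 in iPS and 0.08 in R1 cells. Of all genes, 12.7% in iPS and 13.5% in R1 cells were called in either direction. Those that fell were Vcam1, another immunoglobulin adhesion protein (-3.05 in iPS and -3.19 in R1 cells), the integrin subunits Itgav (-2.83 and -2.86) and Itgb3 (-2.25 and -2.21), and the cortex linker moesin (Msn, -2.20 and -2.35). Ezrin (Ezr), a linker of the same family, rose by 1.70 in both. Itgal, Itgam and Itgb2, the integrin subunits that bind Icam1 (named after their values were seen), had mean signals of 32.5 to 78.0 in the 3 groups and were not called.

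Podxl had signals of 101, 86.2 and 100.4 in MEF, 251, 204 and 236 in R1 and 302, 211 and 247 in iPS arrays. Every pluripotent array was above every MEF array, and the lines overlapped each other. Podxl rose by 1.26 ± 0.12 in iPS (adjusted p = 1.29e-05) and 1.13 ± 0.12 in R1 cells (adjusted p = 2.54e-05). With a pseudocount of 64 it was not called (0.98 and 0.88), nor when tested against a difference of 1 (adjusted p = 0.329 and adjusted p = 1). Of 7 genes of the sialomucin family and its linkers, 2 rose in both lines. These were Ezr and Slc9a3r1, the scaffold NHERF1 that binds the tail of podocalyxin, which rose by 1.55 ± 0.08 in iPS and 1.37 ± 0.08 in R1 cells. Cd34, a relative of podocalyxin, fell in R1 cells (-1.13 ± 0.10) and was not called in iPS cells (-0.83 ± 0.10). The median of this list was -0.17 in iPS and 0.08 in R1 cells.

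Cd9, whose tetraspanin product organises integrins and other membrane proteins, was high in all groups. Its signals were 1105, 1184 and 1136 in MEF, 1499, 1389 and 1380 in R1 and 1305, 1323 and 1409 in iPS arrays. Every pluripotent array was above every MEF array, by a small step. Cd9 differed by 0.23 ± 0.05 in iPS (adjusted p = 0.00421) and 0.31 ± 0.05 in R1 cells (adjusted p = 0.000646), increases of 1.18 and 1.24 times that were not called. Of 20 other tetraspanins and partners measured, 0 were called higher by limma in either line (2 in each at an unadjusted p under 0.05), 6 were lower in iPS and 9 in R1 cells, with medians of -0.67 and -0.75. Among those that fell were Tspan4 (-2.20 in iPS and -2.05 in R1 cells), Cd63 (-1.89 and -2.52), Tspan6 (-1.51 and -2.20) and the integrin subunit Itgb1 (-1.74 and -1.85). Cd81, a relative of Cd9, was not called (-0.52 ± 0.05 and -0.51 ± 0.05), and was named after its values were seen.

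**Figure D2:**
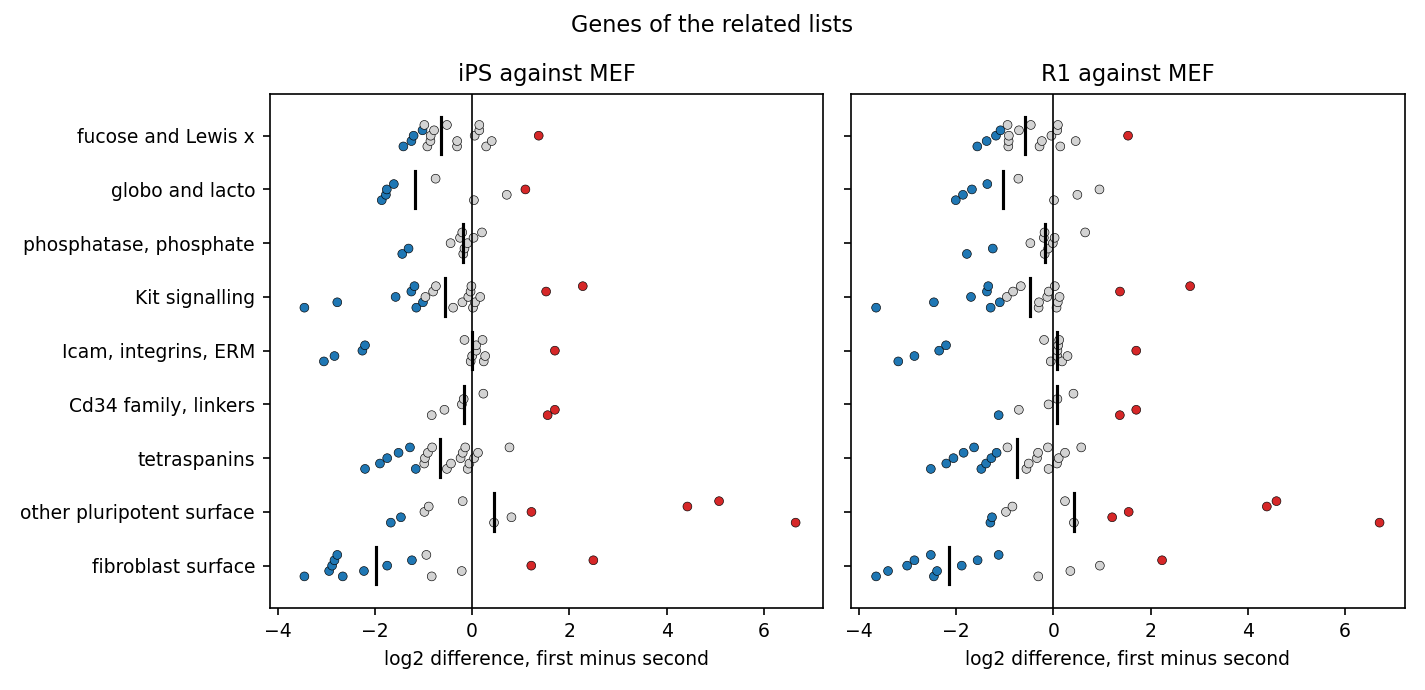
Differences of the genes of 9 related lists (points; log2 scale, first group minus second) in iPS and R1 cells against MEF, red where called higher, blue where called lower and grey where not called, with the list median as a black line. The tetraspanin list has 0 genes called higher, and the fibroblast surface genes have the lowest medians (-1.98 and -2.14).

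Cd24a, a marker shared by pluripotent, epithelial, neural and blood cells, was highest in the fibroblasts. Its signals were 1121, 1184 and 1113 in MEF, 292, 263 and 256 in R1 and 657, 516 and 576 in iPS arrays. The groups were fully separate, with iPS arrays between R1 and MEF. Cd24a fell by 2.01 in R1 cells against MEF (SE 0.08; adjusted p = 4.07e-08), which is 4.04 times on the scale of signal + 16. In iPS cells the difference from MEF was -0.95 ± 0.08 (adjusted p = 7.00e-06), 1.94 times, and just missed the minimum difference of 1. It was called without iPS replicate 1 (-1.04), with array weights (-1.01) and with median centring (-1.01). The gene was thus 2.08 times higher in iPS than in R1 cells, a difference of 1.06 ± 0.08 (adjusted p = 0.000151) with a 95% interval of 0.87 to 1.25. This call was lost without iPS replicate 1 (0.97, adjusted p = 0.000330), with array weights (0.98) and with a pseudocount of 64 (0.95). When tested against a difference of 1 it was also lost (adjusted p = 1).

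The summed signal of the 8 fibroblast identity genes was higher in iPS (3243 to 3897) than in R1 arrays (2161 to 3146), while 0 of the 8 were called between the lines by limma (5 higher and 0 lower at an unadjusted p under 0.05). The sums of 14 fibroblast surface genes overlapped (2898 to 3343 in iPS and 2967 to 3269 in R1 arrays). On the linear scale, the iPS mean of Cd24a lay 36.0% of the way from the R1 mean to the MEF mean. The 8 fibroblast identity genes, among them Col1a1, Thy1 and Postn, lay at 1.20% to 4.75%, and their summed signal at 3.47%. The 10 fibroblast surface genes called lower in R1 cells lay at -3.93% to 19.5%, Cd34 being the highest. Of all 1581 genes called lower in R1 cells, 36 (2.28%) lay above Cd24a, and the median was 2.95%. On this measure Cd24a lay nearer to the fibroblasts than the listed fibroblast genes did. Cd24a was looked at because it was called between the lines, and the measure uses that same difference. Its high position is therefore partly fixed by that choice, and what sets its iPS level was not tested. Of the 4 measured partners of Cd24 (Siglecg, Fgr, L1cam and Cntn2), 0 were called by limma in any of the 3 comparisons (1 in iPS and 2 in R1 cells against MEF and 0 between the lines at an unadjusted p under 0.05), and their medians were -0.04 in iPS and 0.05 in R1 cells against MEF and -0.09 between the lines.

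**Figure D3:**
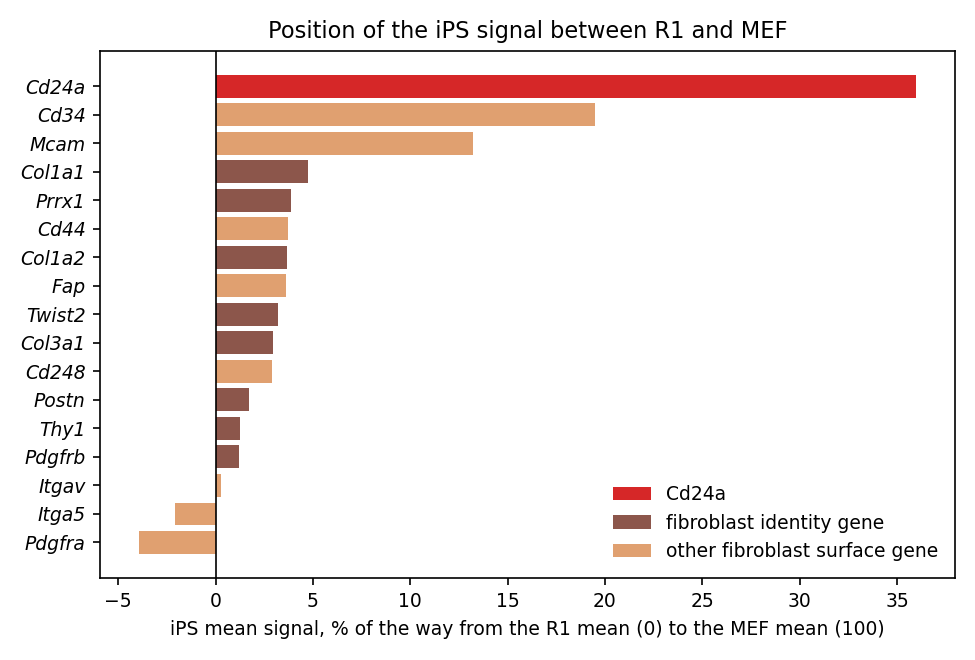
Mean iPS signal as a percentage of the way from the R1 mean (0) to the MEF mean (100) on the linear scale, for Cd24a, 8 fibroblast identity genes and the other fibroblast surface genes called lower in R1 cells against MEF. Cd24a lies at 36.0%, above all the fibroblast genes shown, of which Cd34 is the highest at 19.5%.

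The comparison of iPS with R1 cells asks how far the derived line matches the embryonic stem cell control. Of the 9 members 1, Cd24a, was called higher and 0 lower (1, Icam1, was lower at an unadjusted limma p under 0.05), where 0.296% of all genes were called higher, 0.166% lower and 0.461% in either direction. With no minimum difference it was also 1 member, where 8.52% of all genes passed. The arrays of both lines did not overlap for 4 members, Alpl, Fut4, Cd24a and Icam1, against 21.9% of all genes. For Alpl the iPS cells were higher by 0.40 ± 0.13 (adjusted p = 0.0928; 95% interval 0.12 to 0.69) and for Fut4 by 0.14 ± 0.04 (adjusted p = 0.0790). Icam1 had a difference of -0.35 ± 0.11 (adjusted p = 0.0918; interval -0.60 to -0.10). These 3 did not pass, and their intervals hold at most 0.69 in size. For the other 5 members the lines overlapped. Kit differed by -0.08 (interval -0.36 to 0.19), Fut9 by -0.15 (-0.42 to 0.13), Pecam1 by -0.25 (-0.72 to 0.22), Podxl by 0.12 (-0.15 to 0.40) and Cd9 by -0.08 (-0.20 to 0.04). Their adjusted p-values were 0.499 to 0.830, and the intervals leave room for differences of up to 0.72 for Pecam1.

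**Figure D4:**
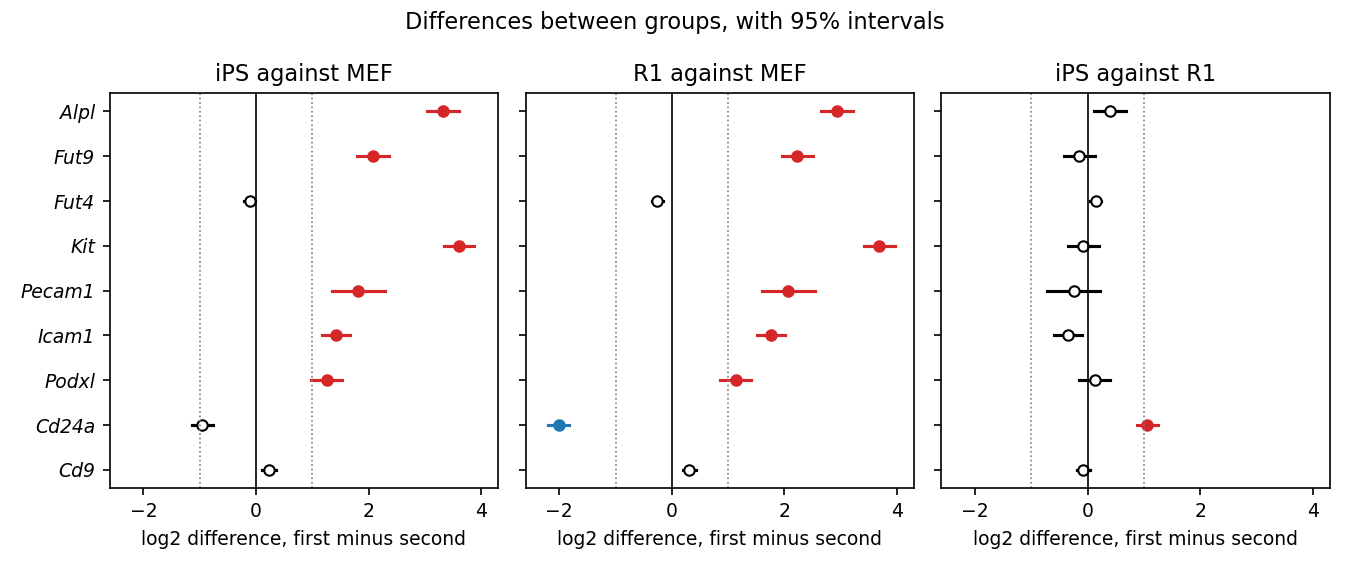
Fitted differences (points; first group minus second, on the scale of log2(signal + 16)) with 95% intervals for the 9 genes in the 3 comparisons; filled red is called higher, filled blue called lower and open not called, and dotted lines mark differences of 1. The intervals of Kit and Alpl start at 2.64 or above against MEF, and between iPS and R1 cells Cd24a, at 1.06, is the point past the dotted line.

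Other surface genes give the setting of these changes. Of 11 other surface markers of mouse pluripotent cells, 4 were higher and 2 lower in iPS, and 5 higher and 2 lower in R1 cells against MEF, with medians of 0.45 and 0.42. Tdgf1, a Nodal co-receptor, rose by 6.65 ± 0.12 in iPS and 6.71 ± 0.12 in R1 cells, the adhesion gene Epcam by 5.08 ± 0.09 and 4.59 ± 0.09 and E-cadherin (Cdh1) by 4.43 ± 0.09 and 4.39 ± 0.09. The MEF means of Epcam (22.4) and Tdgf1 (38.2), and of Dpp4 (36.6), Ddx4 (26.2) and Esrp1 (33.4) below, are under 50. The sizes of these differences thus likewise depend on the pseudocount. The receptor gene Il6st, the signal transducer of LIF, fell (-1.67 ± 0.07 and -1.26 ± 0.07). Its partner Lifr rose in R1 cells (1.55 ± 0.10) and was the 1 of the 11 called between the lines, lower in iPS cells (-1.10 ± 0.10). Of 14 fibroblast surface genes, 9 fell and 2 rose in iPS cells, and 10 fell and 1 rose in R1 cells. Pdgfrb fell most, as given above, and Cd44 (-2.94 and -3.40), Thy1 (-2.88 and -3.01) and Itgav fell as well. Those that rose were Dpp4 (2.49 ± 0.19 and 2.23 ± 0.19) and, in iPS cells, Nt5e (1.22 ± 0.24), both named after their values were seen. Nt5e missed only the minimum difference in R1 cells (0.96 ± 0.24) and was not called between the lines.

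Several members are also markers of other cells that such cultures might hold, so those cells' genes were read beside them. For endothelium, which carries Pecam1, Icam1 and Podxl, the summed signal of 12 genes was 1505 to 1625 in MEF, 1019 to 1069 in R1 and 1029 to 1108 in iPS arrays. Of these 12 genes 0 were called higher by limma (4 in iPS and 5 in R1 cells at an unadjusted p under 0.05) and 2, Flt1 and Emcn, lower in each line, with Cdh5 at means of 37.3 to 42.3. For blood and mast cells, which carry Kit and Cd24a, the summed signal of 15 genes was 597 to 639, 1502 to 1707 and 1397 to 1871. The 2 that were higher in each line were Laptm5 (3.39 ± 0.17 in iPS and 3.27 ± 0.17 in R1 cells) and Cd68 (1.12 ± 0.10 and 1.36 ± 0.10), and 10 of 15 in R1 and 11 in iPS cells had means under 50. For pigment cells, which carry Kit, 1 of 7 genes was higher in iPS cells (Pmel, 1.08 ± 0.09) and 0 in R1 cells (2 and 3 at an unadjusted limma p under 0.05), with sums of 383 to 407 in MEF, 452 to 512 in R1 and 450 to 494 in iPS arrays. Pmel missed only the minimum difference in R1 cells (0.86 ± 0.09) and was not called between the lines. Germ cells carry Kit and alkaline phosphatase, and 6 of 8 germ cell genes were higher in iPS and 5 in R1 cells, for example Ddx4 (2.91 ± 0.19 and 2.40 ± 0.19) and Tfap2c (2.88 ± 0.07 and 2.19 ± 0.07), with sums of 366 to 409 in MEF, 1257 to 1391 in R1 and 1637 to 1830 in iPS arrays. Of 10 epithelial genes, 6 were higher and 1 lower in iPS, and 4 higher and 1 lower in R1 cells, with sums of 1393 to 1647 in MEF, 4172 to 4621 in R1 and 5876 to 7082 in iPS arrays. In iPS against R1 cells, 2 epithelial genes were called higher, Cldn4 (1.33 ± 0.09) and Esrp1 (1.17 ± 0.12), and 8 were not called. Of the germ cell genes 1, Dppa3 (1.63 ± 0.17), was called higher and 7 were not called. At an unadjusted limma p under 0.05, 6 epithelial genes were higher and 0 lower, and 4 germ cell genes were higher and 2 lower. Epcam and Cdh1 of the epithelial list are also among the other pluripotent surface markers above, so these lists are not exclusive to other cells. No marker was at 0, but no value in the series was (the lowest was 4), so this does not bear on presence. The presence of such cells, and their part in the members' changes, was not tested.

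The genes whose levels followed the members most closely over the 9 arrays were found among genes called in at least 1 comparison, as a description of 3 groups of arrays in which the step from MEF to the pluripotent lines sets most of the likeness (Pearson r, with no test). For Kit they were Ssbp1, Tfcp2l1 and Sall4 (r of 0.999 to 0.998), the latter pair being transcription factor genes of pluripotent cells. For Alpl they were Gdap10, Actl6a and Ooep (0.999 to 0.998), and for Fut9 Helb, Rragb and Acadm (0.999 to 0.998). Icam1 was followed by Dnajc6, Hsd17b14 and Rnaseh2a (0.998 to 0.996) and Pecam1 by Bclaf3, Kdm6a and Fam83h (0.990 to 0.987). Podxl was followed by Ciart, Slc9a3r1 and Slc2a1 (0.987 to 0.984), the second being the scaffold gene described above. Cd24a, with its intermediate iPS level, was followed by Egln1, Psap and Sox11 (0.993 to 0.991). For the members that changed little, they were Man1a, Sgpl1 and Csnk1g3 for Fut4 (0.986 to 0.978) and Phtf2, Anxa11 and Sesn2 for Cd9 (0.981 to 0.976). As candidates had to be called, lower values were likely for such members by design, and those of Fut4 overlapped those of Podxl.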

How the data were processed

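Per the labels' protocols, RNA was taken up in Trizol and labelled with whole-transcript kits. The deposited table holds intensity values on a linear scale, and GCOS 1.4 stands in the submitters' processing notes with no role given. How background, summarization and normalization were handled is not given in the sources used here. Array medians differed by at most 0.09 on the log2 scale, so no normalization was added. Detection calls were not used, so dim signal and background cannot be separated, and 30.1% of genes had a mean under 50.

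The platform annotation gave 21789 of 35557 probe sets 1 gene symbol, 1621 several, and did not list 12147. Per gene, the probe set with the highest mean of log2(signal + 16) was used, which left 19938 genes. The pseudocount of 16 understates differences of dim genes. The 9 arrays were fitted together in limma 3.58.1 (R 4.3.3; 6 residual degrees of freedom), with Benjamini-Hochberg adjustment over all genes. Members, gene lists and tests were chosen with earlier results of these data known. All 9 members were named, plus up to 4 called genes per list and comparison and the 3 genes most like each member. Ptpn6, B4galt6, B3gnt5, Slc35a2 and Cdh5 were named outside this rule, as were the genes marked as named after their values were seen. On simulated data for iPS against R1 over 19938 genes, 0% of genes changed by 0.5, 50% changed by 1, 98% changed by 1.5 and 100% changed by 3 were called, and 0 unchanged genes. As a call needs a fitted difference of 1, the shares at 0.5 and 1 follow largely from that limit. The simulation drew independent normal noise around the R1 means in all groups, without array effects. Its count of unchanged genes called applies to that setting. Replicate numbers were not used to pair the arrays in the main fit.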

Additional observations from a re-analysis of the deposited data

Results flagged for a closer look

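Cd24a was singled out because its difference from MEF differed between the pluripotent lines: the difference of iPS minus R1 was 1.06 on the log2 scale (limma adjusted p = 0.000151), higher in 3 of 3 iPS arrays than in any R1 array. Groups of 3 arrays were not searched for outlying arrays.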

How the results depend on the processing

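Over 13 alternatives and 9 fits each without 1 array, 575 of 594 member values kept direction and side of the threshold, 7 became called, 8 lost a call and 4 turned sign. The members called between iPS and R1 cells fell from 1 to 0 with a pseudocount of 64, array weights or a test against a difference of 1, and ranged from 0 to 1 over the fits without 1 array, 0 being without iPS replicate 1. The values that turned sign were near 0 and not called, all of iPS against R1. With array weights Kit was at 0.0051 and Podxl at -0.0052. Without 1 array, Kit ranged from -0.19 to 0.051 (the latter without iPS replicate 3) and Podxl from -0.0047 (without iPS replicate 1) to 0.24. Counts of all genes called with no minimum difference were 9571 in iPS and 9748 in R1 cells against MEF and 1698 between the lines, and tested against a difference of 1 they were 1642, 1827 and 10. With a pseudocount of 64, 45 genes were called between iPS and R1 cells. The replicate block left 6, 7 and 1 members called in the 3 comparisons, as without it. Whether the numbers pair the arrays was not settled. The same-numbered deviations correlated at -0.08 to 0.25, with replicate 1 at 0.21 to 0.25 in all 3 comparisons. Among 3 arrays to choose from each time, 9 of 18 best matches had the same number. Each member had 1 probe set, so the choice among probe sets left the members' differences as they were and moved only their standard errors and p-values.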
